A study of Mus with 8 samples.

Results

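A set of 10 genes was followed that encode chemokines which draw lymphocytes into tissue, or the receptors that read them. They are the ligands Cxcl9, Cxcl10, Cxcl16, Cxcl12, Cxcl13 and Ccl19 and the receptors Cxcr3, Cxcr6, Cxcr4 and Ccr7. They were chosen by name, with earlier results of these data known, out of 45616 genes and transcripts on the array. Their probes were those whose accession is a RefSeq transcript of the gene. All 10 had a probe and 5 of them had 2, which made 15 probes. The 10 genes passed the filter on dim probes that left 31281 genes and transcripts to test, Cxcl13 and Ccl19 on only 5 of the 8 arrays.

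Expression was measured on a 1-colour Agilent array in whole tumours that grew under the skin from transplanted MC38 cells. MC38 is a colon cancer cell line of the mouse. The WT host group held 4 tumours from wild-type B6 mice. The Ext1S100a4Cre host group held 4 tumours from B6 mice with Ext1 flox/flox and S100a4-Cre, so that Cre in the host was driven by S100a4, a gene that fibroblasts use and some immune cells use too. Per the labels, tumours were removed 25 to 30 days after transplantation, and neither host's age is given. The WT hosts carried neither the floxed allele nor Cre, so the effects of Cre and of the deletion cannot be told apart. The MC38 cells kept their own Ext1 in both hosts. The labels name S100a4Cre alone as the source of the second group in 1 field and the full genotype in the title and protocol, and the full genotype is used here. Each tumour is a sample of its own, and the p-values measure only the spread between these samples.

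Chemokines are small secreted proteins that bind to heparan sulfate, the sugar chain that the Ext1 enzyme elongates, and are held by it on cell surfaces and matrix, where leukocytes read them through receptors coupled to G proteins. Cxcl9 and Cxcl10 are induced by interferon gamma, chiefly in myeloid and stromal cells, and bring in activated T cells and NK cells through Cxcr3, while Cxcl16 acts on T cells with Cxcr6 and Cxcl12, a product of fibroblasts and endothelium, on many cells through Cxcr4. Cxcl13 and Ccl19 are made by the stroma of lymphoid tissue, where Cxcl13 gathers B cells through Cxcr5 and Ccl19 gathers T cells and mature dendritic cells through Ccr7.

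None of the 10 genes passed a test of the difference between the hosts, although some mean differences were larger than the SD within a host. The means of 9 of the 10 were lower in the Ext1S100a4Cre host, and 6 of them were lower by at least 1 log2 unit. Over all genes tested, 41.9% had a lower mean in that host and 3.61% were lower by at least 1. The 10 genes were chosen with earlier results of these data known, so these shares give no test of the set. Under other scalings 9 or 10 of the 10 were lower, and the 1 that changed was Cxcl13, which lies near 0. The median difference of the 10 genes was -1.13 log2 units, against 0.05 over all genes. In limma's fit across all genes, with Benjamini-Hochberg adjustment, 0 of the 10 passed an adjusted p of 0.05 (0.00% of all genes did), and 0 of the 10 had an unadjusted p under 0.05 (6.55% of all genes did, 2.16% lower and 4.39% higher). Their adjusted p-values ran from 0.747 to 1.0. The values of the hosts overlapped for all 10, while 4.54% of all genes had no overlap. Fewer cells of a type and less RNA per cell cannot be told apart in whole tumours. Levels below are log2 intensities relative to the array's 75th percentile, and a difference is the mean level in the Ext1S100a4Cre host less that in the WT host, so that a negative value means a lower level in the former. A level can be set against the same probe in another tumour, not against another gene.

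Most of the 10 genes varied far more from tumour to tumour than an average gene. The standard deviation over the 8 tumours was 1.89 for Cxcl9, 1.90 for Cxcl10 and 4.26 for Cxcl13, against a median of 0.31 over all genes. For 9 of the 10 genes it was larger than in at least 90.3% of genes, and only for Cxcr4, at 0.24, was it smaller than the median gene's. The same tumours stood at the ends: 9 of the 10 genes were highest in WT host tumour 3, where 19.8% of all genes were highest, and 7 were lowest in Ext1S100a4Cre host tumour 1, where 15.6% of all genes were lowest.

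**Figure D1:**
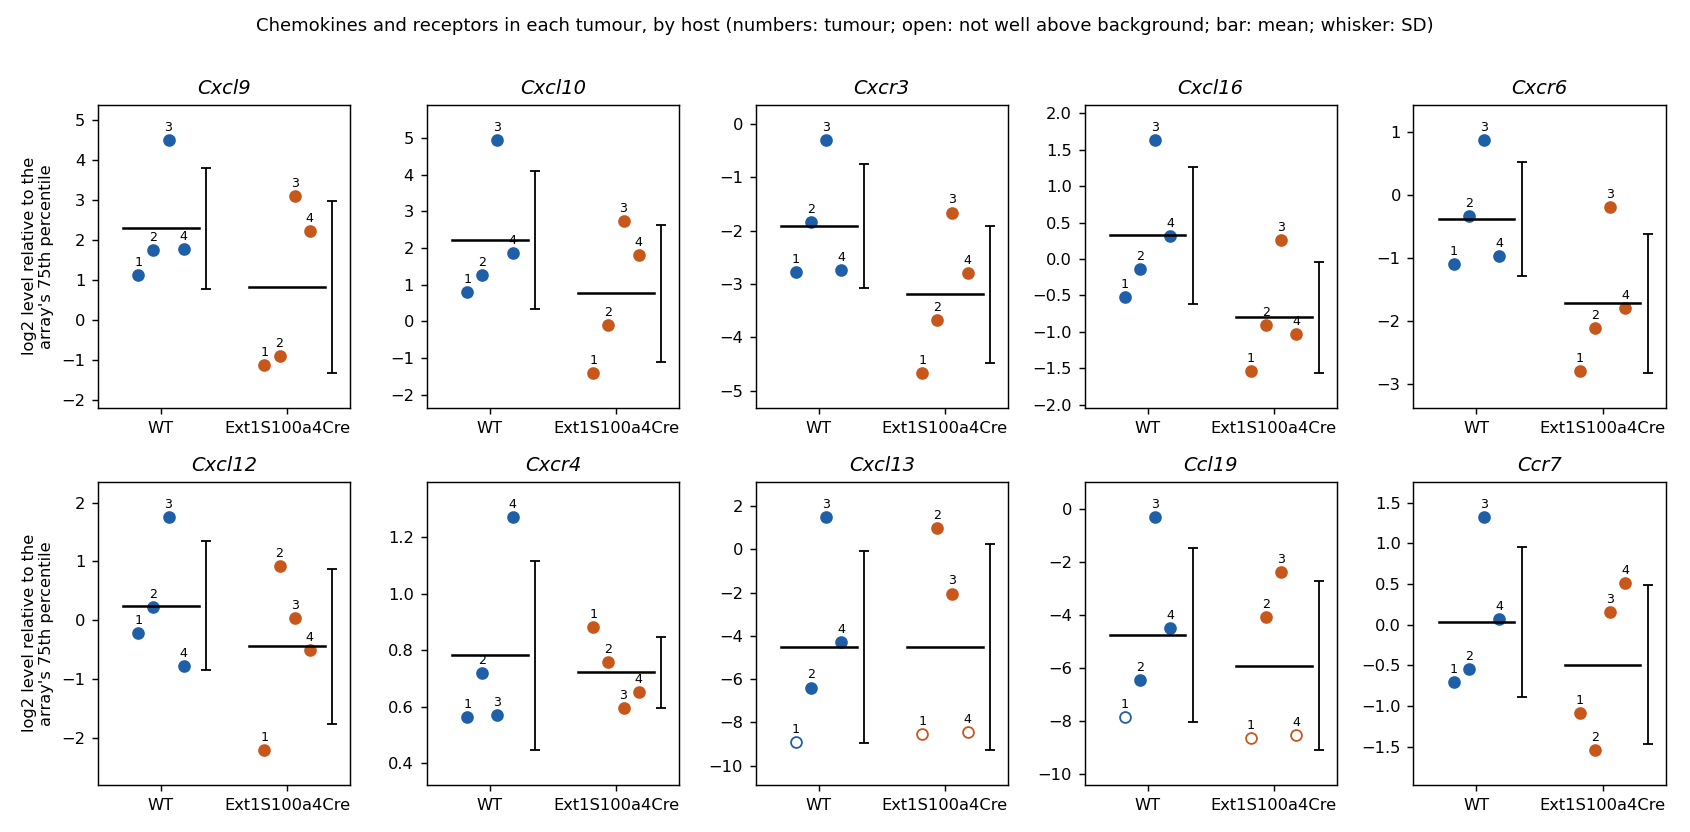
Level of each of the 10 genes in the 8 tumours (y axis: log2 intensity relative to the array's 75th percentile, with its own scale for each gene), by host; points are tumours, open circles were not well above background, bars are means and whiskers the SD (n = 4 each). The hosts overlap in every panel, and Cxcl13 spans 10.4 log2 units while Cxcr4 spans 0.71.

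**Figure D2:**
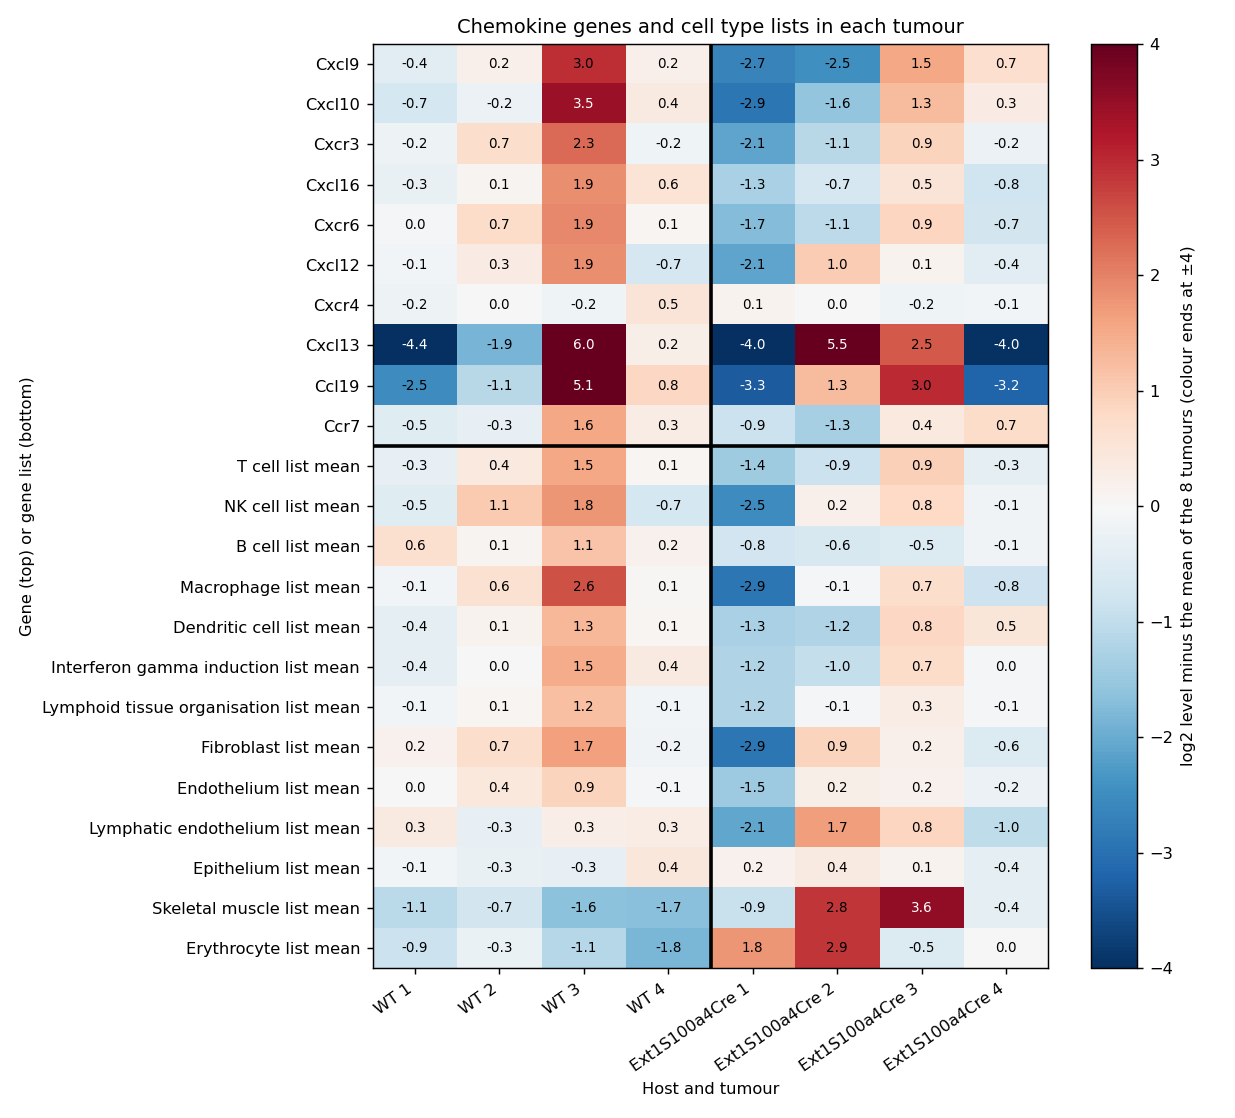
Level of each gene (rows) in each tumour (columns) minus the gene's mean over the 8 tumours, in log2 units, with the value printed in each cell; the lower rows are means of the marker and pathway lists. WT host tumour 3 holds the highest value in 9 of the 10 gene rows and Ext1S100a4Cre host tumour 1 the lowest in 7.

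Cxcl9 (probe A_51_P461665) measured 1.12, 1.75, 4.50 and 1.76 in WT host tumours 1 to 4 and -1.13, -0.90, 3.10 and 2.22 in Ext1S100a4Cre host tumours 1 to 4. Tumours 1 and 2 of the Ext1S100a4Cre host lay below every WT host tumour, while tumours 3 and 4 lay above all of them but tumour 3. The means were 2.28 ± 1.51 and 0.82 ± 2.15 (SD, n = 4 each, WT host first), 2.76-fold apart. The difference was -1.46 (SE 1.14, 95% interval -4.08 to 1.15), with a limma adjusted p of 0.762 and a two-sided exact permutation p of 0.286.

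Cxcl10 (A_55_P2016462), induced by the same cytokine, measured 0.79, 1.26, 4.95 and 1.87 in the WT host and -1.41, -0.09, 2.74 and 1.82 in the Ext1S100a4Cre host. The order of the tumours was nearly that of Cxcl9, with tumours 1 and 2 of the Ext1S100a4Cre host again below the whole WT host group. The means were 2.22 ± 1.88 and 0.77 ± 1.87 (SD, n = 4 each), 2.74-fold apart, and the difference was -1.45 (SE 1.14, 95% interval -4.09 to 1.18; limma adjusted p = 0.764, exact permutation p = 0.314). In the RefSeq table's gene order Cxcl9 and Cxcl10 flank the same gene, Art3.

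Cxcr3 (A_51_P319022), the receptor of both ligands on activated T cells and NK cells, measured -2.77, -1.84, -0.30 and -2.74 in the WT host and -4.67, -3.67, -1.66 and -2.79 in the Ext1S100a4Cre host. In the Ext1S100a4Cre host 3 of 4 tumours lay below all WT host tumours, and tumour 3 lay above all but tumour 3 of the WT host. The means were -1.91 ± 1.16 and -3.19 ± 1.28 (SD, n = 4 each). The difference was -1.29 (SE 0.75, 95% interval -3.01 to 0.44), with a limma adjusted p of 0.747 and an exact permutation p of 0.229.

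Cxcl16 (A_52_P99888), a ligand anchored in the membrane until proteases release it, measured -0.52, -0.14, 1.64 and 0.32 in the WT host and -1.54, -0.90, 0.26 and -1.03 in the Ext1S100a4Cre host. Tumours 1, 2 and 4 of the Ext1S100a4Cre host lay below every WT host tumour, and tumour 3 lay inside the WT host's range. Its mean was 0.32 ± 0.94 and -0.80 ± 0.76 (SD, n = 4 each), and the difference was -1.13 (SE 0.53, 95% interval -2.35 to 0.09; limma adjusted p = 0.747, exact permutation p = 0.114). A second probe gave a difference of -1.17 with the same exact permutation p of 0.114.

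Cxcr6 (A_55_P1962209), its receptor on effector and resident T cells, measured -1.09, -0.32, 0.88 and -0.97 in the WT host and -2.80, -2.11, -0.19 and -1.79 in the Ext1S100a4Cre host. Again tumours 1, 2 and 4 of the Ext1S100a4Cre host lay below the whole WT host group and tumour 3 inside it. The means were -0.38 ± 0.90 and -1.72 ± 1.10 (SD, n = 4 each). The difference was -1.34 (SE 0.62, 95% interval -2.77 to 0.09; limma adjusted p = 0.747, exact permutation p = 0.143), and -1.70 on a second probe (exact permutation p = 0.143).

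Cxcl12 was read by probes to 2 transcripts. The brighter probe (A_51_P172502, transcript NM_001012477) measured -0.21, 0.23, 1.76 and -0.78 in the WT host and -2.21, 0.92, 0.03 and -0.51 in the Ext1S100a4Cre host, so that the hosts overlapped widely. Its difference was -0.69 (SE 0.74, 95% interval -2.40 to 1.02; limma adjusted p = 0.809, exact permutation p = 0.457). The probe to NM_021704 measured -2.01, -1.02, 1.95 and -1.72 in the WT host and -5.07, -0.95, -0.42 and -5.15 in the Ext1S100a4Cre host. On that probe tumours 1 and 4 of the Ext1S100a4Cre host stood far below the other 6, and the difference was -2.20 (exact permutation p = 0.286). Tumour 4 of the Ext1S100a4Cre host was the third lowest of the 8 on the first probe and the lowest on the second.

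Cxcr4 (A_52_P585124), the receptor of Cxcl12, was the steadiest of the 10 genes. It measured 0.56, 0.72, 0.57 and 1.27 in the WT host and 0.88, 0.76, 0.59 and 0.65 in the Ext1S100a4Cre host, all 4 of the latter inside the WT host's range. The means were 0.78 ± 0.34 and 0.72 ± 0.13 (SD, n = 4 each), and they differed by -0.06 (SE 0.18, 95% interval -0.48 to 0.36; limma adjusted p = 0.936, exact permutation p = 0.886). A second probe differed by -0.14. WT host tumour 4 alone lay above 1, and without it the difference was 0.10.

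Cxcl13 (A_51_P378789), the B-cell ligand, had the widest range of the 10 genes. It measured -8.92, -6.39, 1.51 and -4.27 in the WT host and -8.52, 0.99, -2.04 and -8.46 in the Ext1S100a4Cre host. Tumour 1 of the WT host and tumours 1 and 4 of the Ext1S100a4Cre host were not well above background, so those 3 readings are only bounds. High and low tumours occurred in both hosts, and the difference of 0.0069 (SE 2.80, 95% interval -6.45 to 6.46; limma adjusted p = 1.0, exact permutation p = 1) leaves a large change in either direction possible.

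Ccl19 (A_55_P2099742), which shares with Cxcl13 a source in lymphoid stroma, measured -7.85, -6.44, -0.29 and -4.50 in the WT host and -8.66, -4.07, -2.37 and -8.54 in the Ext1S100a4Cre host. It was well above background in the same 5 tumours as Cxcl13. Its difference was -1.14 (SE 1.97, 95% interval -5.68 to 3.40; limma adjusted p = 0.882, exact permutation p = 0.6), and it turned to 0.35 without WT host tumour 3. Ccl21a, the other Ccr7 ligand and the gene next to Ccl19 in the RefSeq order, was well above background in 4 of these 5 tumours, WT host 3 and 4 and Ext1S100a4Cre host 2 and 3. Ccl19 and Ccl21a have near-identical copies in the mouse genome, so their probes may read more than 1 locus.

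Ccr7 (A_55_P2023542), the receptor of Ccl19, measured -0.70, -0.54, 1.33 and 0.07 in the WT host and -1.09, -1.54, 0.15 and 0.52 in the Ext1S100a4Cre host. Tumours 1 and 2 of the Ext1S100a4Cre host lay below all WT host tumours and tumours 3 and 4 inside their range. The means were 0.04 ± 0.92 and -0.49 ± 0.98 (SD, n = 4 each), and they differed by -0.53 (SE 0.59, 95% interval -1.88 to 0.83; limma adjusted p = 0.816, exact permutation p = 0.486) and -0.89 on a second probe. All 5 second probes had the sign of the first.

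**Figure D3:**
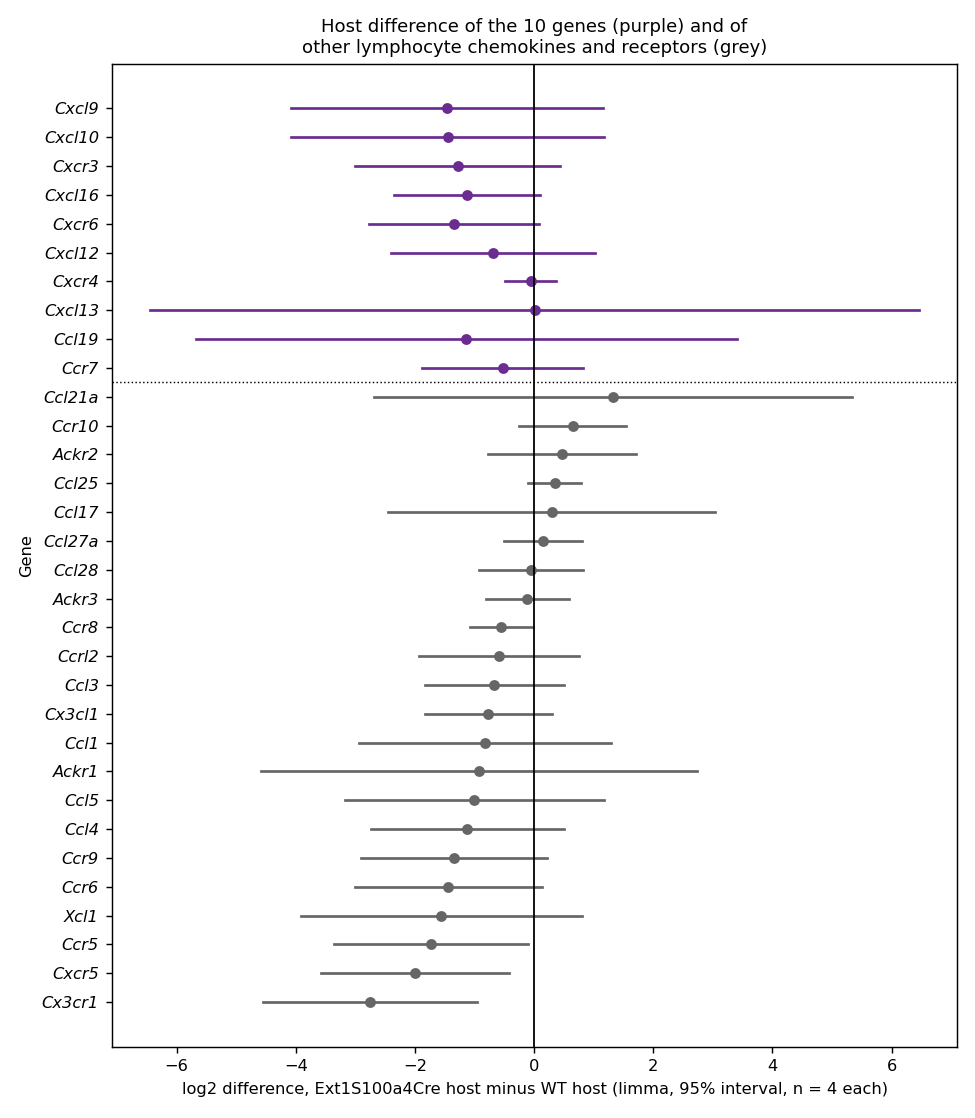
Difference of each gene between the hosts (x axis: Ext1S100a4Cre host minus WT host, log2 units) with limma's 95% interval. All 10 intervals include 0, and those of Cxcl16 and Cxcr6 end closest to it, at 0.09 each.

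Several differences rested on few tumours. Without WT host tumour 3 the difference of Cxcl9 was -0.72, of Cxcl10 -0.54, of Cxcr3 -0.75, of Cxcl16 -0.69 and of Cxcr6 -0.93. That of Cxcl12 was then -0.19 and that of Ccr7 -0.10. Without Ext1S100a4Cre host tumour 1, Cxcl9 differed by -0.81, Cxcl10 by -0.73, Cxcr3 by -0.79, Cxcl16 by -0.88, Cxcr6 by -0.98 and Cxcl12 by -0.10. Without Ext1S100a4Cre host tumour 3 the differences were larger, at -2.22 for Cxcl9, -2.11 for Cxcl10, -1.80 for Cxcr3, -1.48 for Cxcl16 and -1.85 for Cxcr6. In that comparison the last 3 of these had unadjusted limma p-values of 0.0373, 0.021 and 0.00809, and adjusted ones of 0.523 each. There 2965 of all 31281 genes had an unadjusted limma p under 0.05, against 2050 with all tumours. Without both WT host tumour 3 and Ext1S100a4Cre host tumour 1, a choice made after seeing the data, Cxcl9 differed by -0.07 and Cxcl10 by 0.18. In that comparison Cxcr3 differed by -0.26, Cxcl16 by -0.44 and Cxcr6 by -0.57. Over the 20 alternatives tried the difference of Cxcr6 ran from -1.92 to -0.57 and passed the adjusted threshold in none.

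The arrays lay in 2 rows of a slide, each with 2 tumours of either host. In the first row (tumours 1 and 2) Cxcl9 differed by -2.45, Cxcl10 by -1.78, Cxcr3 by -1.86, Cxcl16 by -0.89 and Cxcr6 by -1.74. In the second row (tumours 3 and 4) the differences were -0.47, -1.13, -0.71, -1.36 and -0.94 in the same order, so these 5 genes were lower in the Ext1S100a4Cre host in both rows. Cxcl12 differed by -0.65 and -0.73, and Ccr7 by -0.69 and -0.37. Cxcr4 changed sign, from 0.18 to -0.30, as did Cxcl13, from 3.89 to -3.88, and Ccl19, from 0.78 to -3.06. With the row as a block, Cxcl16 and Cxcr6 had unadjusted limma p-values of 0.0245 and 0.0375 and adjusted ones of 0.669 and 0.683. In that fit 2265 of all 31281 genes had an unadjusted limma p under 0.05, against 2050 without the block.

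Further features of the samples ran across the Ext1S100a4Cre host group. Tumours 1 and 4 showed 0 of 4 Y-linked genes well above background, and the other 6 tumours of the study showed 4 of 4. The labels give no sex. Without tumours 1 and 4 the differences were -1.19 for Cxcl9, -0.89 for Cxcl10, -0.75 for Cxcr3, -0.64 for Cxcl16 and -0.77 for Cxcr6, and that of Cxcl12 turned to 0.23. Tumours 2 and 3 had the highest mean of the skeletal muscle genes, at 2.84 and 3.56 relative to each gene's mean over the study, against -1.68 to -0.38 in the others. Without tumours 2 and 3, Cxcl16 differed by -1.61 and Cxcr6 by -1.92, with limma adjusted p-values of 0.284 and 0.281. The 3 erythrocyte genes Hba-a1, Hbb-bt and Alas2 differed by 1.58, 2.18 and 2.37, each at an unadjusted limma p under 0.05 and an adjusted p of 0.747. Among all genes 4.39% were higher at that unadjusted p, and the hosts overlapped for each of these 3 genes. The mean of the 3 was highest in Ext1S100a4Cre host tumours 1 and 2, at 1.76 and 2.85. In these tumours Cxcl9, Cxcl10 and Ccr7 lay below the whole WT host group. The part of these features in the differences was not tested. All 6 epithelial genes that mark the labelled colon cancer cells were well above background on all 8 arrays. Arrays correlated at 0.91 to 0.99 with each other, and their 75th percentile intensity ran from 846.9 to 1265. It was lowest in Ext1S100a4Cre host tumours 1 and 4, at 854.8 and 846.9. These 2 arrays had 65.7% and 66.0% of probes well above background, against 68.8% to 71.1% on the others. Within this host, array signal, Y-linked genes and muscle genes thus split the tumours alike and cannot be told apart.

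Ligands and their receptors were then compared across the 8 tumours in 7 pairs, with p-values from the exact permutation of pairings adjusted over the 7. These p-values do not allow for immune content that the genes of a tumour share. The T cell and macrophage marker means, given below, were also highest in WT host 3 and lowest in Ext1S100a4Cre host 1. Genes outside the pairs followed Cxcr3 as well, such as Myo1f and Btk (r = 0.996 each). Whether a relation is particular to a ligand and its receptor was not tested. Cxcl9 and Cxcr3 varied together (Pearson r = 0.94, exact p = 0.000942, adjusted 0.00195; Spearman rho = 0.83, exact p = 0.0154, adjusted 0.0269). Without the 2 tumours farthest from the median of Cxcl9, WT host 3 and Ext1S100a4Cre host 1, r was 0.84 (exact p = 0.0361), and with each host's mean removed it was 0.93.

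Cxcl10 and Cxcr3 had r = 0.95 (exact p = 0.00112, adjusted 0.00195) and rho = 0.88 (exact p = 0.00724, adjusted 0.0169). Without the same 2 tumours r was 0.75 and its exact p 0.0708, so this relation rests in part on them. Cxcl9 and Cxcl10 had the closest relation of the 7 pairs, with r = 0.97 (exact p = 7.44e-05, adjusted 0.000521), rho = 0.98 (exact p = 0.000397, adjusted 0.00278) and r = 0.96 without the 2 tumours.

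Cxcl16 and Cxcr6 had r = 0.94 (exact p = 0.00057, adjusted 0.00195) and rho = 0.90 (exact p = 0.00456, adjusted 0.016). Without WT host 3 and Ext1S100a4Cre host 1 r was 0.83 (exact p = 0.0403), and with host means removed 0.91. The other 3 pairs did not pass. Cxcl12 and Cxcr4 had r = -0.48 and rho = -0.48 (exact p = 0.238 and 0.243, adjusted 0.278 and 0.34), and r = -0.41 without the 2 tumours. Ccl19 and Ccr7 had r = 0.48 and rho = 0.38 (exact p = 0.224 and 0.36, adjusted 0.278 and 0.42), and r = -0.15 without the 2 tumours. Cxcl13 and its receptor Cxcr5 had r = -0.13 and rho = -0.02 (exact p = 0.771 and 0.977, which the adjustment left as they were), and r = -0.17 without WT host 3 and Ext1S100a4Cre host 2. Both of these last 2 ligands, and Cxcr5, were well above background on only 5 arrays. Each slide row holds 4 tumours, too few for a correlation within it.

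**Figure D4:**
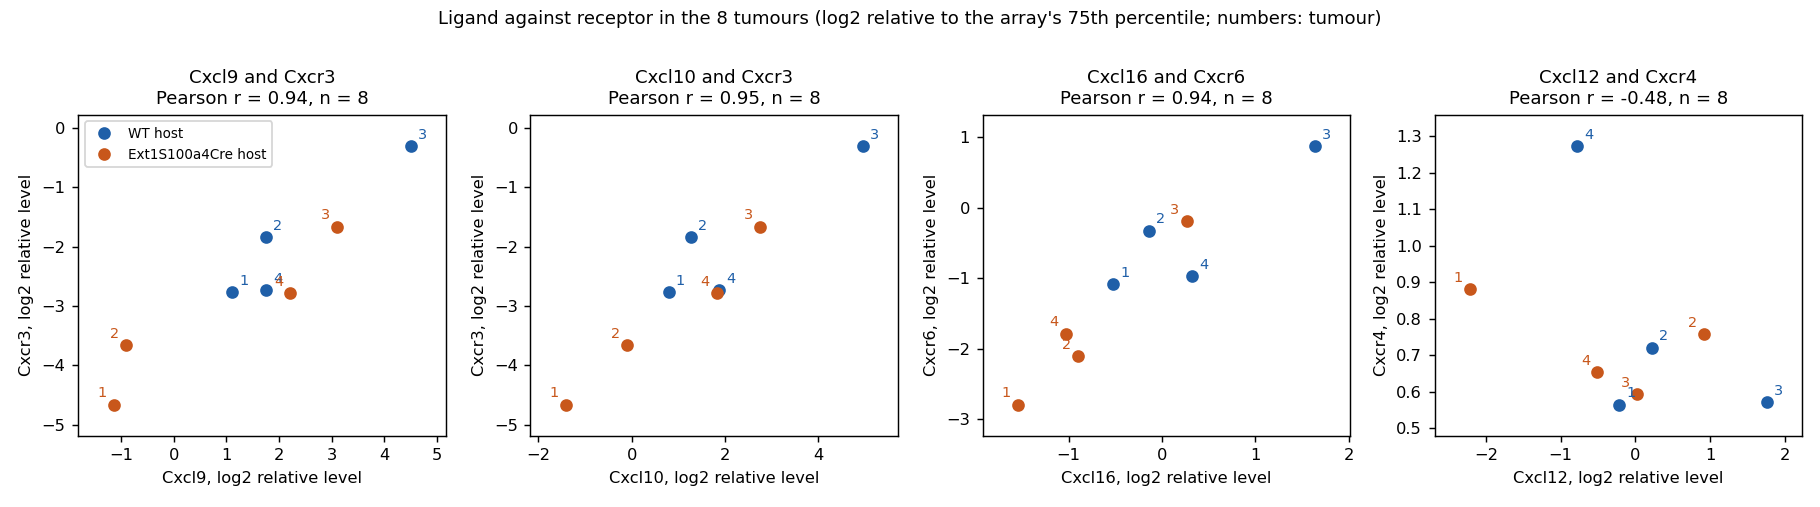
Receptor (y axis) against ligand (x axis) in the 8 tumours for 4 pairs, both as log2 levels relative to the array's 75th percentile; colours are hosts and numbers are tumours. Points of both hosts follow 1 rising line for Cxcl9 and Cxcr3, Cxcl10 and Cxcr3, and Cxcl16 and Cxcr6 (r = 0.94, 0.95 and 0.94), and none for Cxcl12 and Cxcr4 (r = -0.48).

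Marker genes of the cells that make these molecules or respond to them were compared between the hosts in the same way, and the part of cell content in the differences of the 10 genes was not tested. Of 9 T cell genes, 8 were lower in the Ext1S100a4Cre host with a median difference of -0.97, and 0 had an unadjusted p under 0.05. Their mean, relative to each gene's mean over the study, ran from -0.32 to 1.54 in the WT host and from -1.43 to 0.94 in the Ext1S100a4Cre host, with WT host 3 highest and Ext1S100a4Cre host 1 lowest. The 3 with the smallest p were Cd5 (-0.90), Cd3g (-1.63) and Cd3d (-1.27). All 9 macrophage genes were lower (median -1.48), 2 of them, Ms4a7 (-2.57) and Adgre1 (-2.25), at an unadjusted p under 0.05, and their mean ran from -0.12 to 2.55 and from -2.91 to 0.72. All 9 fibroblast genes were lower too (median -1.55), with Col1a1 (-1.80) and Col3a1 (-2.11) at an unadjusted p under 0.05 and a mean that ran from -0.15 to 1.65 and from -2.89 to 0.89. Of 9 dendritic cell genes, 7 were lower (median -0.28). Of 7 B cell genes, 4 were lower, each at an unadjusted p under 0.05 and without overlap, among them Ms4a1, Fcmr and Cd79b, while 3 were higher. Among all genes 41.9% had a lower mean, 2.16% were lower at that p and 1.14% were lower without overlap. Ms4a1 was well above background in 4 WT host tumours and 0 Ext1S100a4Cre host tumours, so its difference rests on background readings in the latter. No gene of these lists passed the adjusted threshold. The counts of lower T cell, macrophage and fibroblast genes did not fall under other scalings, while all 7 B cell genes had lower means in the unscaled series matrix.

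Each of the 10 genes was therefore also read relative to the marker mean of a cell type that makes it or responds to it, as 12 pairs of gene and cell type. Cxcr6 minus the T cell mean was 0.26, 0.32, 0.37 and -0.01 in WT host tumours 1 to 4 and -0.33, -0.20, -0.09 and -0.41 in Ext1S100a4Cre host tumours 1 to 4. All 4 Ext1S100a4Cre host values lay below all 4 WT host values, with means of 0.23 ± 0.17 and -0.26 ± 0.14 (SD, n = 4 each). The difference of -0.49 had an exact permutation p of 0.0286, the smallest that 4 against 4 tumours can give, and 0.343 after adjustment over the 12 pairs. With this many tumours a single pair of the 12 could not have passed after adjustment, whatever its values. Over all genes tested, 0.128% were lower and 0.416% higher without overlap on this scale, against 1.14% and 3.40% before the subtraction. The subtraction shifts every gene by the T cell mean, so this share does not measure how often chance would give the Cxcr6 result. The second Cxcr6 probe, added after the first was seen, differed by -0.85 and also did not overlap. The T cell mean itself differed by -0.85, and its genes differed unequally. Cd3g differed by -1.63, Cd8a by -1.33, Cd3d by -1.27, Cd2 by -1.14 and Cd8b1 by -0.97. Cd5 differed by -0.90, Cd3e by -0.49, Cd4 by -0.13 and Lck by 0.18. Before the subtraction Cxcr6 differed by -1.34 on the first probe, close to Cd8a and Cd3d, and by -1.70 on the second. Cxcr6 relative to single T cell genes was not tested, so the result holds for this mean only.

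Cxcr3 minus the T cell mean differed by -0.43 (exact permutation p = 0.229), Cxcr4 by 0.79 and Ccr7 by 0.33. Ccr7 minus the dendritic cell mean differed by 0.07. These values are of each gene's brighter probe. The second Ccr7 probe, not read on this scale, differed by -0.89 before the subtraction. The dendritic cell mean differed by -0.60 and the T cell mean by -0.85, so the sign of both Ccr7 results depends on the probe. Minus the macrophage mean, Cxcl9 differed by 0.08, Cxcl10 by 0.09 and Cxcl16 by 0.42. On this scale none of these ligands had a lower mean in the Ext1S100a4Cre host, but single tumours there spread widely. Cxcl9 measured 0.40, -2.22, 1.01 and 1.69 in Ext1S100a4Cre host tumours 1 to 4 (SD 1.71, against 0.38 in the WT host). Cxcl10 ran from -1.41 to 1.29 in the Ext1S100a4Cre host. Cxcl12 on its brighter probe differed by 0.49 against the fibroblast mean and by -0.05 against the endothelial mean. Its second probe, not read on this scale, differed by -2.20 before the subtraction. The fibroblast mean differed by -1.18 and the endothelial mean by -0.64, so the sign against fibroblasts depends on the probe. Ccl19 minus the fibroblast mean differed by 0.04, and Cxcl13 minus the B cell mean by 1.05. The exact permutation p of all 11 pairs other than Cxcr6 was at least 0.114, and at least 0.686 after adjustment.

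**Figure D5:**
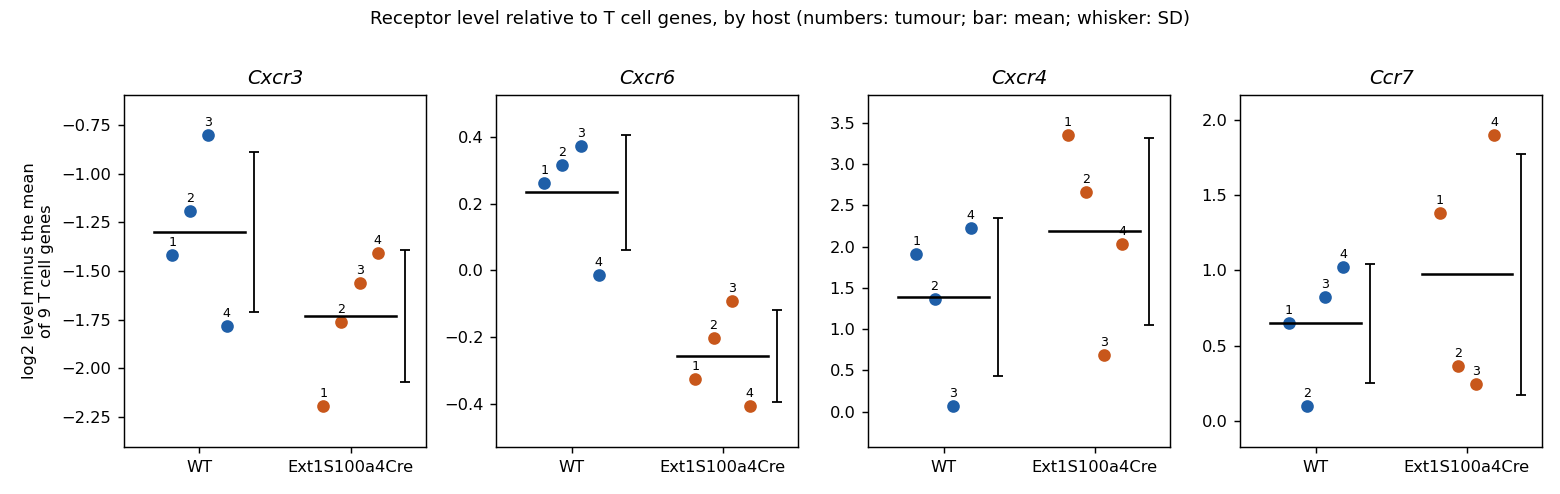
Receptor level minus the mean of the 9 T cell genes in each tumour (y axis, log2 units) by host, for the receptors that T cells carry; bars are means and whiskers the SD (n = 4 each). For Cxcr6 the 4 Ext1S100a4Cre host tumours, from -0.41 to -0.09, lie below the 4 WT host tumours, from -0.01 to 0.37, and for the other receptors the hosts overlap.

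The wider set of lymphocyte chemokines and receptors held 28 further genes, of which 27 were on the array and 22 were tested. Of these, 16 had a lower and 6 a higher mean in the Ext1S100a4Cre host, with a median difference of -0.72. An unadjusted p under 0.05 was reached by 4, all lower, and the adjusted threshold by 0. Among all genes 41.9% had a lower mean and 2.16% were lower at that unadjusted p. Cx3cr1, the fractalkine receptor of macrophages and cytotoxic lymphocytes, measured 1.28, 1.66, 2.95 and 1.09 in the WT host and -2.86, -0.65, 0.93 and -1.48 in the Ext1S100a4Cre host. It was the only 1 of the 22 whose hosts did not overlap, with a difference of -2.75 (SE 0.78, limma adjusted p = 0.747). Among all genes 4.54% did not overlap in either direction, so a count of 1 in 22 is near that share. Its ligand Cx3cl1 differed by -0.77, with Ext1S100a4Cre host tumour 1 at -1.06 and all others at 0.76 or higher.

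Further receptors also had lower means. Ccr8, the receptor of Ccl1, differed by -0.56 (SE 0.23). Cxcr5, the receptor of Cxcl13, was well above background in 4 WT host tumours and 1 Ext1S100a4Cre host tumour, so its measured difference of -1.99 rests on background readings in the other 3. The limma adjusted p of Ccr8 was 0.747. The ligands Ccl3, Ccl4 and Xcl1 differed by -0.67, -1.12 and -1.56 with unadjusted p-values in limma of at least 0.149. Ccl5 ran from 0.87 to 4.79 in the WT host and from 0.11 to 3.33 in the Ext1S100a4Cre host, so that the hosts overlapped. The scavenging receptors, which take up chemokines without signalling for migration, showed no common direction: Ackr1 differed by -0.93, Ackr2 by 0.47 and Ackr3 by -0.11. The epithelial ligands Ccl25, Ccl27a and Ccl28 differed by 0.34, 0.15 and -0.05, and in the unscaled series matrix Ccl27a by -0.10. With normexp Ccl28 differed by 0.17.

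A list of interferon gamma, its receptor and signalling genes and some of its other targets, such as Tap1, had lower means in the Ext1S100a4Cre host for 16 of 16 genes, with a median difference of -0.77 and 0 at an unadjusted p under 0.05. The count was 16 under each other scaling too. Over all genes 41.9% had a lower mean, and 6.55% had an unadjusted limma p under 0.05. The list mean, relative to each gene's mean over the study, ran from -0.35 to 1.47 in the WT host. In the Ext1S100a4Cre host it ran from -1.22 to 0.73, with tumour 1 lowest. Genes of 1 pathway can vary together, so the count gives no test of the list. The 4 with the smallest p were Nfkb1 (-0.32, a subunit of NF-kB), Irf8 (-1.29, a transcription factor of myeloid cells), Tap1 (-0.93, the peptide transporter for antigen presentation) and Jak2 (-0.49, a kinase of the interferon gamma receptor). Of 6 genes whose enzymes cut or release chemokines, 4 were lower and 2 higher. Adam17, a sheddase, differed by -0.43 (SE 0.17, limma adjusted p = 0.747) and was the only 1 of them at an unadjusted p under 0.05. Adam10, which releases Cxcl16, was higher by 0.15 without overlap of the hosts, and turned to -0.10 in the unscaled series matrix. Of all genes tested, 3.40% were higher without overlap and 4.54% did not overlap in either direction. Adam10 was named after its values were seen, so its lack of overlap is not read as a result about it. Dpp4, which trims the ends of Cxcl10 and Cxcl12, differed by 0.66, Mmp2 by -2.13 and Mmp9 by -1.88, none at an unadjusted p under 0.05. Of 15 genes that organise lymphoid tissue, 13 were lower (median -0.53, and 11 with normexp), none at an unadjusted p under 0.05, with Tnf at -0.69, Icam1 at -1.54, Pdpn, a marker of reticular stroma, at -1.02 and Tnfsf13b, which encodes a B cell survival factor, at -0.73.

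The genes most like each of the 10 over the 8 tumours were found by Pearson's r among 17228 named genes, as a description. Cxcl9 was closest to Il2ra, Gbp5 and Slamf8 (r = 0.996, 0.996 and 0.993), and Cxcl10 to Il18r1, Cd40 and Gpr132 (0.99 each). Cxcr3 was closest to Myo1f, Il21r and Btk (0.996 each), Cxcl16 to H2-M3 and Tep1 (0.99 each), and Cxcr6 to Nlrp1b, Klra2 and Clec12a (0.99 each). Cxcl12 was closest to Tmem223, Dok1 and Tspan4 (0.99 each), Cxcl13 to Cyp4f16, Slc41a3 and Adamts15 (0.99 each), and Ccl19 to Pde4d, Rasgrf2 and Acsl1 (0.99, 0.98 and 0.98). Ccr7 was closest to Rufy3, Amz1 and Il4i1 (0.98 each). Cxcr4 was closest to Slc25a23, Tjp3 and Arhgef16, at 0.96, 0.95 and 0.95 the lowest of the 10 genes. The 8 tumours behind each r also differ in the marker lists given above.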

How the data were processed

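Whole-tumour RNA of 8 tumours was measured on 1-colour Agilent arrays, 0.5 µg each per the labels. The deposited scanner files hold spot intensities, background-subtracted and detrended per the file headers, from Agilent Feature Extraction 10.7.3.1 (the submitters' processing notes name 9.1), with flags of 0 or 1 for other spot properties. The deposited series matrix holds the same intensities, 100% equal within 0.01%, with medians of 47.1 to 80.0, and no scaling or centring.

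Log2 intensity minus the array's 75th percentile over all spots that are not controls was used, a choice of spots over probes made after seeing that the headers count spots. Spots with outlier flags were left out and none was saturated. A probe was kept if at least 4 of the 8 arrays had it well above background, as 65.7% to 71.1% of probes were per array. The brightest probe stood for a gene. Probes were named through RefSeq accessions (GRCm38.p6): 32994 of 56605 had a symbol. The headers name build mm9, so the table served for names and gene order only.

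Hosts were compared with limma 3.58.1 (lmFit, eBayes, no covariates) in R 4.3.3, Benjamini-Hochberg adjusted over 31281 genes. The exact permutation test used all 70 assignments, two-sided, with 0.0286 the smallest p. The fit was tested on simulated data. Every member is named, with up to 4 genes of each other list by smallest unadjusted p, any other lymphocyte chemokine or receptor gene, and the 3 genes most like each member. A few genes that this rule names are not reported here. Genes counted as single exceptions, such as Adam10, were named after their values were seen. The members, lists and left-out tumours were chosen with earlier results of these data known. Correlations with host means removed, the spread and extremes over tumours, and the share of all genes on the T cell scale were added after values were seen. Alternatives were normexp, quantile scaling, the series matrix, other filters and probes, a replicate or slide row block and leaving out tumours. The number of arrays limits the precision.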

Additional observations from a re-analysis of the deposited data

Results flagged for a closer look

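In each host, values were examined in groups of 4: 15 probes of the 10 genes, 12 pairs of gene and cell type and the list means. Of these 88 groups, 4 had a value that stood apart from the other 3 by most of the group's range (Dixon's test at 95%). Chance gives this about 1 time in 20, so a count of 4 in 88 is near that rate. None of the 4 was a value of the 10 genes. WT host tumour 3 stood apart for the mean of the lymphoid tissue genes (1.21, the others -0.12 to 0.08), of the plasma cell genes (5.08, the others -2.51 to -1.39) and of the neutrophil genes (1.80, the others -0.94 to -0.53). It is the tumour in which 9 of the 10 genes were highest. WT host tumour 2 stood apart for the lymphatic endothelial genes (-0.32, the others 0.26 to 0.34), a mean of 2 genes.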

How the results depend on the processing

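The count of the 10 genes past the adjusted threshold stayed at 0 in 21 alternatives. Their count at an unadjusted limma p under 0.05 was 2 with the slide row as a block and 2 with the series matrix. It was 2 without Ext1S100a4Cre host tumours 2 and 3. With each tumour left out in turn it was 0 to 3 (3 without Ext1S100a4Cre host tumour 3, 1 without WT host tumour 1). The calls among all 31281 genes also rose, from 2050 to 2265 with the row block and 2728 with the series matrix. They rose to 5361 without Ext1S100a4Cre host tumours 2 and 3, to 2965 without its tumour 3 and to 2147 without WT host tumour 1. These counts of the 10 genes are therefore not read as a result about them. Of all genes, 1 passed the adjusted threshold with normexp and 11 without Ext1S100a4Cre host tumours 1 and 4. It was passed by 3 without WT host tumour 3 and Ext1S100a4Cre host tumour 1. With each tumour left out in turn 0 to 2 passed (2 without WT host tumour 3), and the cause was not tested. Under the series matrix, which has no scaling, the median difference of all genes moved from 0.05 to -0.20 and the share of lower genes among those at an unadjusted p under 0.05 from 33.0% to 93.6% (14.8% with normexp). The median of the 10 genes relative to that of all genes was -1.18 in both, -0.82 with normexp and -1.21 with quantile scaling.

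Directions of Cxcl9, Cxcr3, Cxcl16 and Cxcr6 held in all 20 alternatives. Cxcl13 turned to -0.21 with quantile scaling, -0.24 with the series matrix and -3.97 without Ext1S100a4Cre host tumours 2 and 3, and ran from -1.83 to 2.02 with single tumours left out, among them -1.46 and -0.62 without WT host 1 or 2 and -0.81 without Ext1S100a4Cre host 3. Ccl19 ran from -2.32 to 0.35 with single tumours left out, Cxcr4 from -0.13 to 0.10. Without Ext1S100a4Cre host tumours 1 and 4, Cxcl12 turned to 0.23 and Ccl19 to 1.55. Without WT host 3 and Ext1S100a4Cre host 1, Cxcl10 turned to 0.18, Cxcl12 to 0.40, Ccl19 to 1.27 and Ccr7 to 0.10. Ccr7 minus the dendritic cell mean turned to -0.30 and Cxcl13 with Cxcr5 to r = 0.20 with normexp, and Ccl19 minus the fibroblast mean to -0.10 with quantile scaling.

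Same-numbered tumours of the hosts had deviations correlated at 0.49, -0.16, 0.59 and -0.24, and differently numbered ones at -0.58 to 0.31. Whether the numbers pair the tumours cannot be told from these values. With the replicate number as a block, 0 genes and 0 of the 10 passed the adjusted threshold, while 5 of the 10 (Cxcl9, Cxcl10, Cxcr3, Cxcl16 and Cxcr6) and 3241 genes had an unadjusted limma p under 0.05, against 0 and 2050 without it. The smallest of the 10 were 0.000796 for Cxcl16 and 0.00128 for Cxcr6, with limma adjusted p-values of 0.346 each.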
